A study of Mus musculus with 6 samples.

Results

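The transcripts described here are 10 genes of maturing granulocytes, with Mpo among them, in bulk RNA sequencing of whole mouse brainstem. All 10 were found by gene symbol among the 18058 genes of the deposited table. They were selected on measured values as well as on known biology, since Mpo and Chil3 were singled out for their lower level in these same libraries labelled Rag1-/- and the list was drawn up with that contrast known. The genotype difference of the 10 genes is therefore given as a description with no p-value, and the standard errors and intervals beside it give the spread or the counting error only. The samples were 3 brainstems of wild type C57BL/6J mice (WT) and 3 of Rag1-/- mice (B6.129S7-Rag1tm1Mom/J), all snap-frozen at 1 month of age from naive animals. Rag1 encodes a subunit of the enzyme that cuts antigen receptor loci for rearrangement, and without it no mature B or T cells form, whereas granulocytes do. The study asked which transcripts differ in a host brainstem that lets human glioma cells grow. Each library came from its own animal. Whether the animals were perfused before dissection is not given in the sources used here.

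Granulocytes, chiefly neutrophils, are made in the bone marrow and leave it for the blood. Their granules are filled in order: early precursors make the primary granule proteins Mpo and Elane, later precursors make the secondary granule proteins Ltf, Camp, Ngp and Lcn2, and S100a8, S100a9, Chil3 and Retnlg are abundant from the middle stages onward. Healthy brain tissue holds few such cells, which lie mostly in vessels, the meninges and the marrow of the surrounding skull. In a bulk library, fewer cells of a type and less RNA per cell cannot be told apart.

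The values are CPM, read counts scaled to library size, and the estimated depth was between 3.16e+07 and 4.64e+07 reads a library. At this depth 3 reads, taken as the floor, equal 0.0647 to 0.0951 CPM. The library labels were checked on the targeted gene. Rag1 transcripts were at 0.246 ± 0.137 CPM (SD, n = 3) in WT and at 3.18 ± 0.750 CPM (SD, n = 3) among libraries with the Rag1-/- label, higher and not lower, so the direction of every comparison rests on the label. Ms4a1, a surface marker of mature B cells, was near the floor at 0.0473, 0.108 and 0.0863 CPM across WT replicates 1, 2 and 3 and had no read in any library labelled Rag1-/-. Better expressed genes of the B lineage list overlapped between the genotypes, among them Pax5 (mean 0.739 CPM for WT and 0.954 CPM with the Rag1-/- label) and Cd79a (0.434 and 0.335 CPM). The T cell genes Cd4 (0.357 and 0.353 CPM) and Lck (0.607 and 0.658 CPM) overlapped as well. Xist was at 172 and 177 CPM across WT replicates 1 and 2 and at no more than 2.93 CPM in the other 4 libraries. The Y-linked gene Ddx3y was at 0.283 and 0.215 CPM in those 2 WT libraries and at 45.2 to 56.2 CPM in the other 4. By these genes 2 of the 3 WT libraries and none labelled Rag1-/- looked female, while the sex of each mouse is not given in the sources used here, so sex is in part confounded with genotype in every comparison. All 12 genes of a brainstem marker list were detected in each library. Their sum, most of it the myelin gene Mbp, was 9259 to 10828 CPM for WT and 11404 to 13370 CPM with the Rag1-/- label, without overlap, and the hindbrain gene Hoxb3 ranged from 0.412 CPM in replicate 2 labelled Rag1-/- to 7.86 CPM in replicate 1 labelled Rag1-/-.

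Promoter sequence is shown for the members that carry the results: Mpo and Chil3, which had the largest ratios between the genotypes aside from Elane with its few reads, S100a8 and S100a9, which were the most abundant, and Lcn2, whose pattern differed from the rest. The 250 bases before the annotated transcript start are given 5′ to 3′ on the strand of the gene, from RefSeq on GRCm38.p6 (the mm10 assembly), which held all 10 members. They lie at chr11:87793534-87793783 (plus strand, Mpo), chr3:106167565-106167814 (minus strand, Chil3), chr3:90668821-90669070 (plus strand, S100a8), chr3:90695722-90695971 (minus strand, S100a9) and chr2:32387740-32387989 (minus strand, Lcn2). Capitals mark matches, on either strand, to 3 short motifs: AGGAAG, a core bound by PU.1 and other ETS factors, TTNNGNAA, a loose form of the C/EBP site, and TATAAA, a core promoter element. PU.1 and the C/EBP factors are the main transcription factors of granulocyte development.
Mpo: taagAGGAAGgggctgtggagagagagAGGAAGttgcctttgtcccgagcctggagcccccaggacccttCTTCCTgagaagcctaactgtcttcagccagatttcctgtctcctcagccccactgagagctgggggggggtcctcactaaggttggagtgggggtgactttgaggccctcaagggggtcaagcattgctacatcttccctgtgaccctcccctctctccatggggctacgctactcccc
Chil3: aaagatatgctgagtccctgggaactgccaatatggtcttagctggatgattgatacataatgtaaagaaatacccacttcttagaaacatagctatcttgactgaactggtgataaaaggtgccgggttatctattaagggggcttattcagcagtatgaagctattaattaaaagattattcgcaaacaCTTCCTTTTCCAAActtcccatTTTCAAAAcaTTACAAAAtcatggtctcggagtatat
S100a8: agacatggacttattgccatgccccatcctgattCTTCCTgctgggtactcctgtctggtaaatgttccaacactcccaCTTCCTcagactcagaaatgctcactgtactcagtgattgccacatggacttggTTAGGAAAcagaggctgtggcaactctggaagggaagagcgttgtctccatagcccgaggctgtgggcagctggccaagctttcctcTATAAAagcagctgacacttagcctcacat
S100a9: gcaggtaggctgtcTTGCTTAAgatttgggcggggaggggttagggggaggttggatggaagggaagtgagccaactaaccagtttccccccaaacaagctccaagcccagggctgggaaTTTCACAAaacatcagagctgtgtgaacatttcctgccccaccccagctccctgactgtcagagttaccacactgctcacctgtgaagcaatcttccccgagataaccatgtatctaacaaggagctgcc
Lcn2: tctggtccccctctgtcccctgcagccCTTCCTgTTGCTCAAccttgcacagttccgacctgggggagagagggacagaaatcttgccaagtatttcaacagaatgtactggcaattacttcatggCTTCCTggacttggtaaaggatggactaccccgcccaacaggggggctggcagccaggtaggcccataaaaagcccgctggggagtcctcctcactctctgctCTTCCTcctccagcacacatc

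The AGGAAG core was found in 7 of the 10 member promoters, against 29.5% of 32851 RefSeq promoters of the same length. The TTNNGNAA form was also found in 7 of the 10, against 36.8% of all promoters, and in 4 members both were present. Mpo held 3 AGGAAG cores and no TTNNGNAA match, whereas Ngp held 3 TTNNGNAA matches and no AGGAAG core. Chil3 had a cluster, with 1 AGGAAG core that starts 59 bases before the transcript start and TTNNGNAA matches at 53, 37 and 27 bases before it. In this cluster the core and the first TTNNGNAA match directly adjoin, and no matches of different motifs overlapped in any member. S100a8 was the only member with TATAAA, 30 bases before its start, a sequence found in 12.4% of all promoters. A match of this kind shows the letters only, and binding was not measured.

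**Figure D1:**
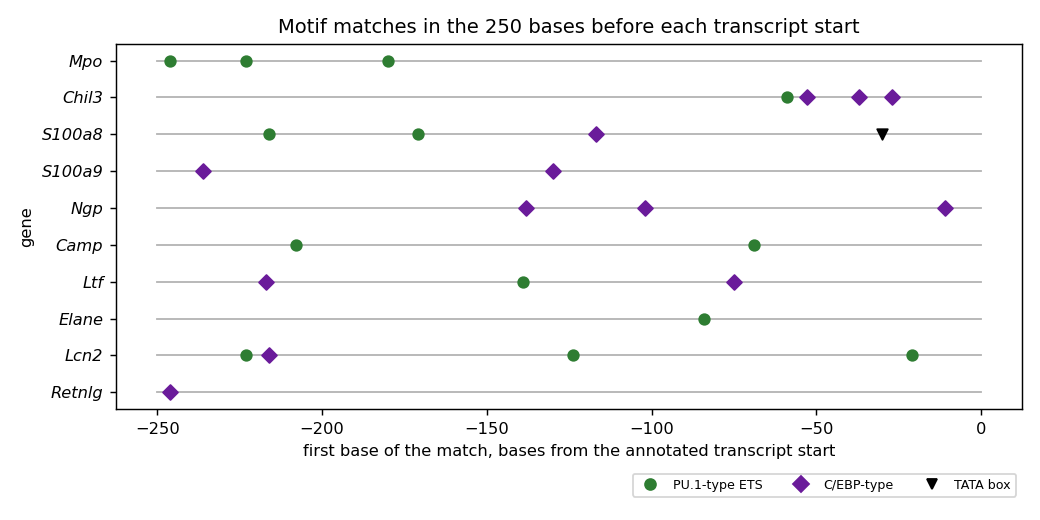
Position of motif matches before the annotated transcript start of each of the 10 genes. The horizontal axis gives the first base of each match in bases from the start, and symbols stand for the AGGAAG core (PU.1-type ETS), the TTNNGNAA form (C/EBP-type) and TATAAA, named TATA box in the key; 7 of the 10 genes hold the first and 7 the second.

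All 10 members had a lower mean level among libraries with the Rag1-/- label than in WT, with WT means between 1.40-fold (Lcn2) and 9.32-fold (Mpo) higher. A lower mean was seen for 67.8% of the 16762 genes tested. For 5 members (Mpo, Chil3, S100a9, Retnlg and Elane) every library labelled Rag1-/- was below every WT library, and for the other 5 the groups overlapped. Of all genes tested, 14.4% were lower without overlap, and of the 9 members tested, which leave out Elane, 4 were. With median-of-ratios scaling it was 7.36% of genes and 4 of the 10 members, and with quantile scaling 6.82% and 4 of 10. S100a9 was the one that then overlapped. Since the members were chosen with this contrast known, nothing is read from the difference between these shares. Fold changes come from the model fitted across all genes (limma-trend on log2(CPM + 0.1)), which took 9 of the 10 members, those with a mean of at least 0.1 CPM. Elane did not pass this filter, and Mpo passed it only through its WT libraries.

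Mpo, which encodes myeloperoxidase, the heme enzyme that makes hypochlorous acid in primary granules, lies on chromosome 11 (87793784 to 87804412, plus strand, 14 exons). It was at 0.165, 0.388 and 0.575 CPM across WT replicates 1, 2 and 3, and at 0.0290, 0.0635 and 0.0286 CPM in replicates 1, 2 and 3 labelled Rag1-/-. These values stand for 7, 18 and 20 reads in WT and for 1, 2 and 1 reads among libraries with the Rag1-/- label. The groups did not overlap, and no library labelled Rag1-/- was above the floor of 3 reads. Pooled over libraries, 45 reads in WT against 4 gave a depth-adjusted ratio of 9.22, with a 95% interval of 3.36 to 35.3 that covers counting error only and not the spread between animals. Mpo overlaps an annotated noncoding RNA gene, Gm34064, which is not analysed here. Library strandedness is not given in the sources used here.

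Elane encodes neutrophil elastase, the serine protease of the same granules (chromosome 10, 79886312 to 79888216, plus strand, 5 exons). It was the lowest member, with 2, 6 and 3 reads in WT replicates 1, 2 and 3 (0.0473, 0.129 and 0.0863 CPM). In the libraries labelled Rag1-/- it had 1 read in replicate 1 (0.0290 CPM) and none in replicates 2 and 3. The groups do not overlap, but with 11 reads against 1 the pooled ratio of 9.02 had a 95% counting interval of 1.31 to 388, and only WT replicate 2 was above the floor. Prtn3, the neighbouring gene of another primary granule protease, showed no such pattern, at 0.665 ± 0.0643 CPM for WT and 0.627 ± 0.169 CPM among libraries with the Rag1-/- label (SD, n = 3; log2 fold change -0.10, standard error 0.22, adjusted p = 0.890 by limma-trend).

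S100a9 and S100a8 encode the 2 subunits of calprotectin, a calcium and zinc binding protein that makes up much of the neutrophil cytosol. They lie on chromosome 3 with 22.6 kb between them (S100a8 at 90669071 to 90670034, plus strand; S100a9 at 90692630 to 90695721, minus strand; 3 exons each). S100a9 was at 1.98, 4.61 and 6.96 CPM across WT replicates 1, 2 and 3 and at 0.982, 1.27 and 1.94 CPM in replicates 1, 2 and 3 labelled Rag1-/-. WT replicate 1 was only 1.02-fold above the highest library labelled Rag1-/-, so that the absence of overlap rests on a margin smaller than the spread within either group. S100a8 was at 1.20, 3.53 and 4.77 CPM for WT and at 0.722, 1.14 and 1.71 CPM among libraries with the Rag1-/- label. Here the groups overlapped, with WT replicate 1 below replicate 3 labelled Rag1-/-. The log2 fold changes were -1.51 (standard error 0.41) for S100a9 and -1.21 (standard error 0.47) for S100a8.

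Chil3 and Retnlg also separated the genotypes. Chil3 encodes the chitinase-like lectin Ym1, made by granulocyte precursors and by some macrophages (chromosome 3, 106147554 to 106167564, minus strand, 11 exons). It was at 0.283, 0.582 and 0.776 CPM across WT replicates 1, 2 and 3 and at 0.0579, 0.190 and 0.171 CPM in replicates 1, 2 and 3 labelled Rag1-/-. The lowest WT library was 1.49-fold above the highest library labelled Rag1-/-. Reads could be shared with Chil4, a near-identical paralog that is not analysed here. Retnlg encodes resistin-like gamma, a secreted protein of marrow and blood neutrophils (chromosome 16, 48872608 to 48874498, plus strand, 4 exons). It was at 0.212, 0.409 and 0.489 CPM for WT and at 0.0579, 0.127 and 0.142 CPM among libraries with the Rag1-/- label, again with 1.49-fold between the nearest libraries of the groups. The log2 fold changes on the log2(CPM + 0.1) scale, which understates the change of low transcripts, were -1.67 (standard error 0.38) for Mpo, -1.40 (standard error 0.38) for Chil3 and -1.14 (standard error 0.33) for Retnlg.

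The 4 members of the secondary granules overlapped between the genotypes, in each case through WT replicate 1. Ltf, which encodes the iron-binding protein lactoferrin (chromosome 9, 111019292 to 111042766, plus strand, 17 exons), was at 0.496, 1.12 and 1.55 CPM across WT replicates 1, 2 and 3. In replicates 1, 2 and 3 labelled Rag1-/- it was at 0.260, 0.222 and 0.570 CPM. Camp, which encodes the antimicrobial peptide cathelicidin (chromosome 9, 109847377 to 109849456, minus strand, 4 exons), was at 0.142, 0.517 and 0.604 CPM for WT and at 0.173, 0.127 and 0.199 CPM among libraries with the Rag1-/- label. For Camp, WT replicate 1 was below 2 of the 3 libraries labelled Rag1-/-. Ngp, a granule protein related to the cathelicidins (chromosome 9, 110419808 to 110423012, plus strand, 4 exons), was at 0.850, 1.64 and 3.28 CPM for WT and at 0.404, 0.697 and 1.05 CPM among libraries with the Rag1-/- label. The log2 fold changes were -1.32 (standard error 0.41) for Ltf, -0.83 (standard error 0.41) for Camp and -1.20 (standard error 0.46) for Ngp. Ltf, Camp and Ngp lie within 1.20 Mb of chromosome 9. Of the 2 nearest genes on each side of each of these 3, only Cdc25a, next to Camp, was lower in every library labelled Rag1-/-. Of all genes tested, 14.4% were lower in this way. Among the same neighbours of the other members, members aside, Chia1 (next to Chil3), Ciz1 (near Lcn2) and C330027C09Rik (near Retnlg) were so too.

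Lcn2 encodes lipocalin 2, which binds bacterial siderophores and is also made by glia and endothelium during inflammation (chromosome 2, 32384637 to 32387739, minus strand, 6 exons). It was at 0.637, 1.44 and 1.98 CPM across WT replicates 1, 2 and 3 and at 0.578, 1.11 and 1.22 CPM in replicates 1, 2 and 3 labelled Rag1-/-. WT replicate 1 was below 2 of the 3 libraries labelled Rag1-/-, and the log2 fold change of -0.38 was smaller than its standard error of 0.40. It was -0.80 without WT replicate 1, -0.05 without WT replicate 3 and -0.08 without replicate 1 labelled Rag1-/-, and -1.02 (standard error 0.48) with a term for Xist, so that its size depends on single libraries and on that term. The first holds to a lesser degree for Camp (-1.32 without WT replicate 1 and -0.54 without WT replicate 3) and Ngp (-0.73 without WT replicate 3).

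**Figure D2:**
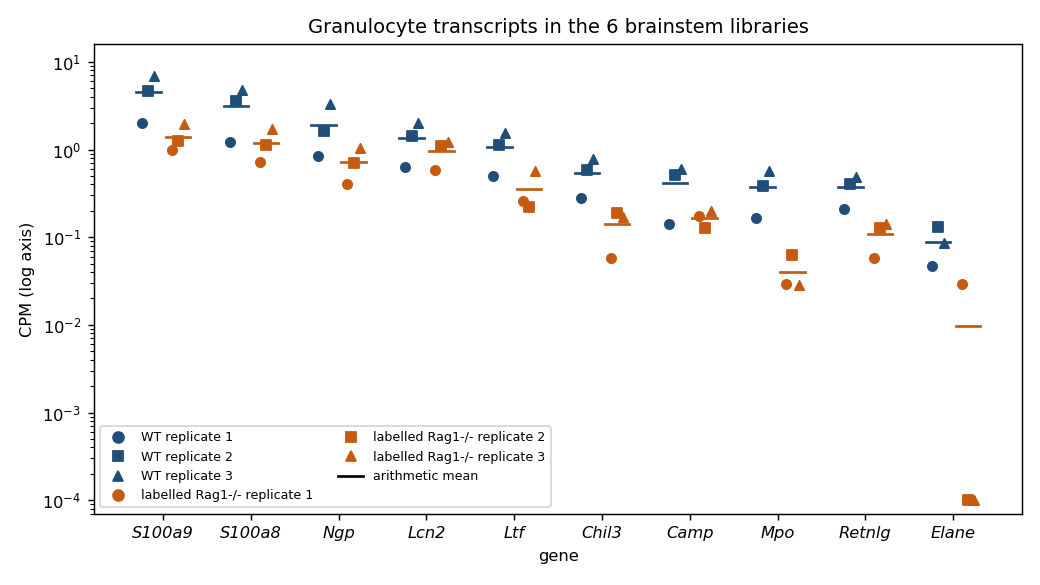
Level of each of the 10 genes in each library, in CPM on a log axis, with bars at the arithmetic mean of each group. WT replicate 1 lies lowest of the WT libraries for all 10 genes, and Mpo and Elane reach no more than 2 reads in any library labelled Rag1-/-.

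The members varied together between libraries of the same genotype. WT replicate 3 was the highest of all 6 libraries for 9 of the 10 members, with WT replicate 2 the highest for Elane, and WT replicate 1 was the lowest WT library for all 10. The highest WT library exceeded the lowest by 2.30-fold (Retnlg) to 4.26-fold (Camp). For 6 of the 10 members this spread within WT was larger than the ratio of the genotype means. Among the libraries labelled Rag1-/-, replicate 3 was the highest for 7 members. Over the 9 members that passed the filter, the 36 pairwise Pearson correlations of log2(CPM + 0.1) after centring within genotype ranged from 0.66 (Mpo and Ltf) to 1.00 (Lcn2 and Retnlg), with a median of 0.89. These are descriptions over 6 libraries, and all members of a library share its depth and dissection.

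WT replicates 2 and 3 were above all 3 libraries labelled Rag1-/- for 10 of 10 members, and WT replicate 1 was above them for 5. Without WT replicate 1, all 10 members were therefore lower without overlap, as were 20.4% of all genes tested. Without replicate 3 labelled Rag1-/-, 8 members were, as were 21.4% of all genes tested. WT replicates 1 and 2 also stood apart by their levels of Xist and Ddx3y. Among the 4 libraries with low Xist, WT replicate 3 was above each of the 3 libraries labelled Rag1-/- for 10 of 10 members, as it was for 41.9% of genes tested, but here WT is a single library. In a fit with a term for libraries with Xist over 100 CPM, whose genotype difference rests on that library, the log2 fold changes of the 9 members were all more negative than without the term. They were -2.28 (standard error 0.47) for Mpo, -2.29 for S100a9, -1.99 for S100a8, -1.92 for Chil3, -1.52 for Retnlg, -2.13 for Ngp, -1.95 for Ltf, -1.41 for Camp and -1.02 for Lcn2. Summed over the 10 members, the level was 6.02, 14.4 and 21.1 CPM across WT replicates 1, 2 and 3 and 3.29, 4.94 and 7.03 CPM in replicates 1, 2 and 3 labelled Rag1-/-. The sums overlapped, and the ratio of their means was 2.71.

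Shares of the sum did not overlap between the genotypes for Mpo, S100a9 and Lcn2. Mpo was selected for its lower level in these libraries, so nothing is read from its lower share. Shares are also bound to each other. That of Lcn2, which had the smallest ratio of means (1.40), rises where the other members fall more. S100a9 held 32.1% to 33.0% of the sum in WT and 25.6% to 29.8% with the Rag1-/- label. Mpo held 2.75%, 2.70% and 2.73% of the sum in WT replicates 1, 2 and 3, almost constant while the sum itself ranged from 6.02 to 21.1 CPM. In replicates 1, 2 and 3 labelled Rag1-/- it held 0.880%, 1.28% and 0.406%. The exact 95% binomial intervals were wide, 1.11% to 5.57% in WT replicate 1 and 0.0102% to 2.23% in replicate 3 labelled Rag1-/-, and all 3 intervals of the libraries labelled Rag1-/- overlapped those of WT. These intervals, like those given below for Lcn2, cover counting error only and not the spread between animals. Lcn2 showed the opposite order. It held 10.6%, 10.04% and 9.41% of the sum in WT and 17.5%, 22.4% and 17.4% among libraries with the Rag1-/- label. The interval of replicate 2 labelled Rag1-/- (16.2% to 29.8%) overlapped no WT interval, that of replicate 3 (12.9% to 22.7%) overlapped WT replicate 1 alone (7.09% to 15.03%), and that of replicate 1 (11.1% to 25.8%) overlapped all 3. Per unit of S100a9, Lcn2 was at 0.307 ± 0.0190 in WT and 0.699 ± 0.154 among libraries with the Rag1-/- label (SD, n = 3), with no overlap. The ratios of the other secondary granule genes to S100a9 overlapped between the genotypes. They were 0.239 ± 0.0139 and 0.245 ± 0.0620 for Ltf, 0.418 ± 0.0586 and 0.502 ± 0.0781 for Ngp, and 0.0901 ± 0.0206 and 0.127 ± 0.0433 for Camp, WT first (SD, n = 3).

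**Figure D3:**
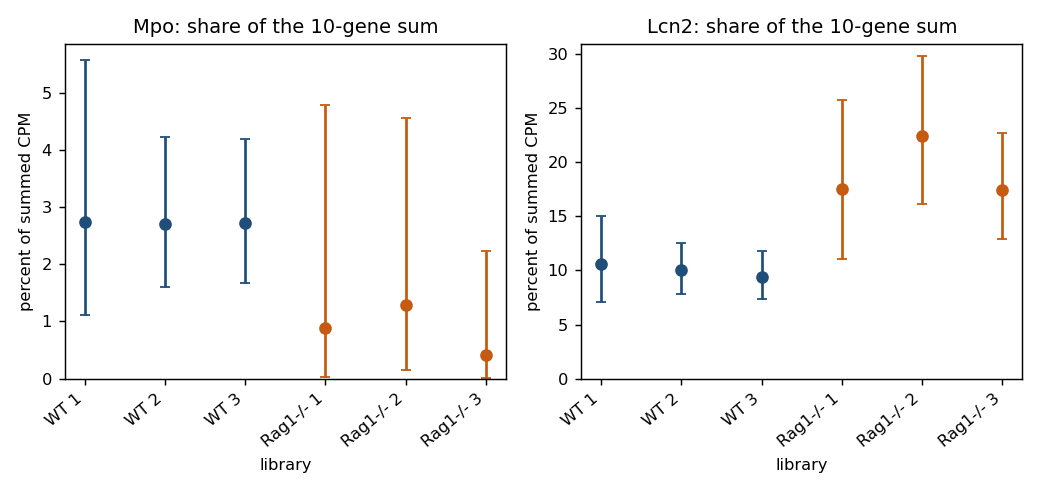
Share of Mpo (left) and Lcn2 (right) in the summed CPM of the 10 genes, in percent, for each library, with exact 95% binomial intervals on the estimated reads. Mpo lies between 2.70% and 2.75% in the WT libraries and between 0.406% and 1.28% in those labelled Rag1-/-, and Lcn2 lies higher in all 3 libraries labelled Rag1-/-.

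Per kilobase of the longest coding transcript in GENCODE M21, S100a9 had the highest level in WT (mean 8.70, from 3.82 to 13.4 CPM per kb over the 3 libraries), followed by S100a8 (mean 6.52, from 2.48 to 9.82 CPM per kb). Ngp at 1.57 and Lcn2 at 1.48 CPM per kb came next, and their order was not stable, since Ngp was above Lcn2 in only 1 of 6 libraries. Retnlg (0.624), Camp (0.555), Ltf (0.385) and Chil3 (0.355 CPM per kb) followed. In this stretch, Retnlg was above Camp and Ltf above Chil3 in 4 of 6 libraries each. Mpo (0.137) and Elane (0.0891 CPM per kb) were lowest. By mean CPM over the 6 libraries, the members stood between percentile 3.19 (Elane) and percentile 31.2 (S100a9) of the genes in the table, all low transcripts in this tissue.

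The genes whose pattern over the 6 libraries was most like the mean z-score of the 9 tested members were Ank2, Trp53inp1, Zfp451, Ahnak and Nrl, with Pearson r between 0.987 and 0.993. Their levels moved far less than those of the members, as in Ank2, which was between 437 and 494 CPM in all libraries. Among the 16753 other genes tested, 377 had r over 0.9.

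Other genes of the granulocyte programme were read from lists of related genes. Of the 68 related genes tested, none had an adjusted p under 0.05 (limma-trend, Benjamini-Hochberg adjustment over all genes), 10 were lower and 2 were higher at an unadjusted p of at most 0.05, and 13 were lower and 5 higher without overlap, against 14.4% and 3.98% of all genes tested. Of all genes tested, 0.0477% had an adjusted p under 0.05 (0.0358% with a lower level), and at the unadjusted limit 9.29% were lower and 2.27% higher. Of the primary granule list, 7 of 10 genes were in the table and tested. None passed the unadjusted limit, with a median log2 fold change of -0.12 against -0.05 over all genes tested. Ctsc, the protease that activates granule serine proteases, was at 8.30 ± 0.643 CPM for WT and 7.15 ± 0.673 CPM among libraries with the Rag1-/- label (SD, n = 3; log2 fold change -0.21, adjusted p = 0.450). Srgn, which encodes the granule proteoglycan serglycin, had a log2 fold change of -0.09 (adjusted p = 0.785).

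Of the secondary and tertiary granule list, 2 of 13 genes tested were lower at the unadjusted limit and none higher, with a median of -0.34. They were Cybb, the membrane subunit of the NADPH oxidase, at 1.11 ± 0.307 CPM for WT and 0.683 ± 0.141 CPM among libraries with the Rag1-/- label (SD, n = 3; adjusted p = 0.398), and the lysozyme gene Lyz2, at 6.11 ± 1.12 and 4.60 ± 0.706 CPM (SD, n = 3; adjusted p = 0.418). Both are also expressed by microglia and macrophages. Itgam, the integrin subunit CD11b, had a log2 fold change of -0.08 (adjusted p = 0.624).

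Of the mature neutrophil list, 16 of 24 genes were in the table and 7 were tested, of which 1 was lower at the unadjusted limit and none higher, with a median of 0.23. The fold change was positive for 5 of the 7. Among these, G0s2, a regulator of lipid breakdown and the most abundant gene of the list, was at 7.92 ± 0.461 and 7.94 ± 0.227 CPM, WT first (SD, n = 3; log2 fold change 0.01, adjusted p = 0.982). Wfdc17 and the chemokine gene Ccl6 had higher values in every library labelled Rag1-/-, with log2 fold changes of 0.64 (adjusted p = 0.434) and 0.23 (adjusted p = 0.570). The gene past the unadjusted limit was Hdc, which encodes histidine decarboxylase and is also made by mast cells and histamine neurons. It was at 3.37, 5.75 and 15.6 CPM across WT replicates 1, 2 and 3 and at 2.08, 2.88 and 2.11 CPM in replicates 1, 2 and 3 labelled Rag1-/- (log2 fold change -1.49, adjusted p = 0.346). With the term for Xist its log2 fold change was -2.69 (adjusted p = 0.0135 by limma-trend), which rests on WT replicate 3, its highest library. Csf3r, the receptor for the granulocyte growth factor G-CSF, was at 2.27 ± 0.345 and 1.96 ± 0.166 CPM (SD, n = 3; adjusted p = 0.619). The surface marker Ly6g was at no more than 0.0576 CPM in any library, and the chemokine receptor Cxcr2 was at 0.0473, 0.129 and 0.0576 CPM for WT and at 0.0290, 0.0001 and 0.0286 CPM among libraries with the Rag1-/- label, where 0.0001 stands for no read. Ly6g was thus below the floor in each library, and Cxcr2 was above it in WT replicate 2 alone. So were Clec4d at 0.474 CPM, Il1b at 0.388 CPM and Clec4e at 0.237 CPM, other untested genes of this list. Csf3r and G0s2 of the same list were well above the floor in each library.

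Of the transcription factors of granulopoiesis, 4 of 9 genes tested were lower at the unadjusted limit and none higher, with a median of -0.35. Cebpa, which is needed to form granulocyte precursors, was at 10.2 ± 1.04 CPM for WT and 7.91 ± 0.310 CPM among libraries with the Rag1-/- label (SD, n = 3; log2 fold change -0.35, adjusted p = 0.319). Cebpd had a log2 fold change of -0.48 (adjusted p = 0.340) and Runx1 one of -0.43 (adjusted p = 0.382). Cebpa and Cebpd are also expressed by glia. Cebpe and Gfi1 are not analysed here.

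Among ligands and receptors of granulocytes and their products, 2 of 14 genes tested were lower at the unadjusted limit, with a median of -0.05. These were Csf2rb, the shared receptor chain for GM-CSF and interleukins (log2 fold change -0.61, adjusted p = 0.394), and Lrp2, an endocytic receptor that can take up Lcn2 (log2 fold change -0.72, adjusted p = 0.414). Slc22a17, reported as a receptor for Lcn2, was at 624 ± 4.84 CPM for WT and 611 ± 16.5 CPM among libraries with the Rag1-/- label (SD, n = 3; adjusted p = 0.791). Of the paralogs of the members, 1 of 19 tested was lower and 2 were higher at the unadjusted limit, with a median of -0.02. Chil1, a chitinase-like gene of astrocytes related to Chil3, was at 14.5 ± 0.871 CPM for WT and 17.8 ± 2.10 CPM among libraries with the Rag1-/- label (SD, n = 3; log2 fold change 0.29, adjusted p = 0.354). The lower paralog was Meltf, which encodes melanotransferrin, an iron-binding relative of Ltf, at 0.405 ± 0.178 CPM for WT and 0.125 ± 0.0811 CPM among libraries with the Rag1-/- label (SD, n = 3; log2 fold change -1.18, adjusted p = 0.359). Trf, the transferrin gene related to Ltf, had a log2 fold change of -0.02 (adjusted p = 0.938). S100a10, which shares the S100 fold, was at 13.6 to 16.5 CPM for WT and 14.95 to 20.6 CPM among libraries with the Rag1-/- label.

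Marker lists of other cells that a dissected brainstem can hold were summed in each library. The red blood cell list ranged from 846 to 2424 CPM for WT and from 1228 to 1944 CPM among libraries with the Rag1-/- label, and 1 of its 11 genes tested was higher at the unadjusted limit and none was lower. Its sum was lowest in WT replicate 1 and highest in WT replicate 3, as were the granulocyte genes among WT libraries, but all 3 libraries labelled Rag1-/- lay between these while their granulocyte sums were no higher than 7.03 CPM. The bone list had a sum that overlapped between the genotypes (143 to 179 CPM in WT, 121 to 158 CPM among libraries with the Rag1-/- label). Of its 11 genes, 5 were lower at the unadjusted limit and 4 lower without overlap, against 9.29% and 14.4% of all genes tested. Ibsp, which encodes bone sialoprotein, was among both (log2 fold change -1.31, adjusted p = 0.254). The 6 genes that did not pass the limit included Sp7 (log2 fold change -0.03), Alpl (-0.07), Col1a2 (-0.07) and Runx2 (-0.07). The eosinophil, basophil and mast cell list was at 2.36 to 2.61 CPM for WT and 1.65 to 2.09 CPM among libraries with the Rag1-/- label, without overlap and with 1 of its 4 genes tested, the mast cell tryptase gene Tpsb2, lower at the unadjusted limit. The monocyte and border macrophage list overlapped (10.2 to 14.99 and 10.5 to 11.9 CPM), with 1 of 12 genes lower and 1 higher. The microglia list, at 279 to 315 CPM for WT and 287 to 307 CPM among libraries with the Rag1-/- label, had none of 8 genes past the limit. Platelet markers summed to 13.5 to 18.0 CPM for WT and 17.1 to 20.5 CPM with the Rag1-/- label, T cell markers to 0.862 to 1.84 and 0.954 to 1.45 CPM, B lineage markers to 18.6 to 19.1 and 16.7 to 20.5 CPM, marrow progenitor markers to 68.8 to 88.9 and 66.8 to 73.3 CPM, and endothelial markers to 188 to 226 and 204 to 219 CPM, all overlapping. The part of these cells or of the dissection in the level of the granulocyte genes was not tested.

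**Figure D4:**
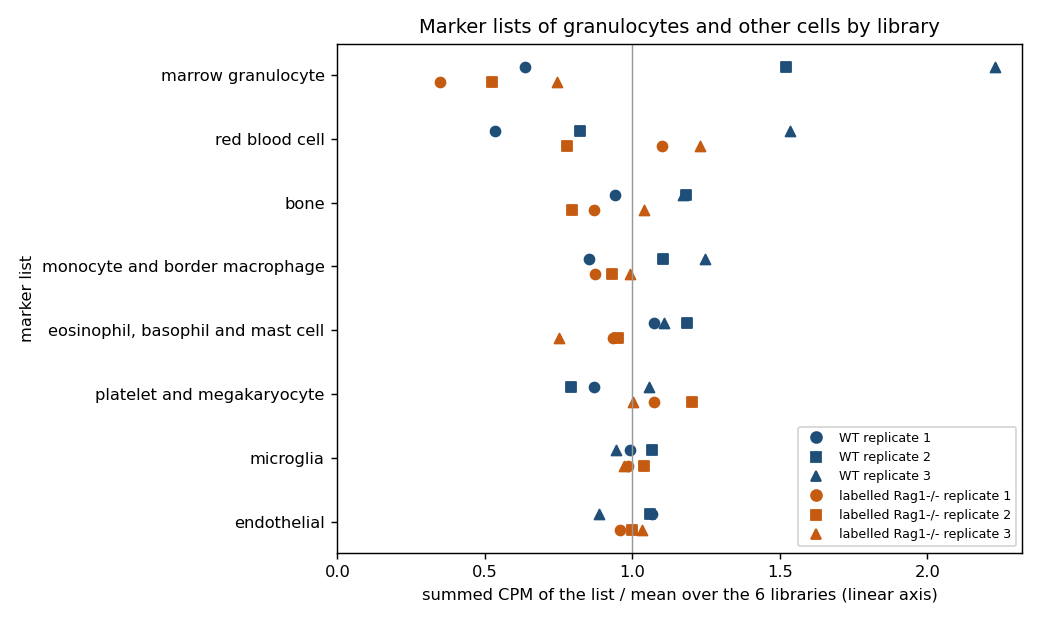
Summed CPM of each marker list in each library, divided by the mean over the 6 libraries, on a linear axis. The granulocyte sums run from 3.29 CPM in replicate 1 labelled Rag1-/- to 21.1 CPM in WT replicate 3, a wider range than that of the other lists shown.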

How the data were processed

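Total RNA of snap-frozen brainstems from 3 WT and 3 Rag1-/- mice was sequenced on an Illumina HiSeq. Reads were aligned by the authors with STAR 2.5.3a to mm10, with RefSeq Transcripts 83 as the annotation, in Partek Flow 8.0. They deposited CPM values, gene counts scaled by library size with 0.0001 standing for no read.

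Deposited CPM were taken to log2(CPM + 0.1). For 16762 genes, whose CPM averaged 0.1 or more, limma-trend tested the genotype difference (limma 3.58.1, R 4.3.3) over all 6 libraries, with p adjusted by Benjamini-Hochberg; the methods name the same model. This left 1296 genes untested. p-values measure the spread between 3 animals per genotype. The test was checked on simulated data.

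Steps between low CPM values gave the worth of 1 read; 84.3% to 86.1% of values under 1 CPM lay within 0.1 read of a whole number, so no count test was run. All 60 values of the members were whole multiples within 0.1 read and are also given as reads. Intervals on reads cover counting error only.

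The members, lists and alternatives were chosen with earlier results of these data known. The genes named are all members and, from each related list, up to 3 with the highest mean CPM and up to 3 with the smallest p, beside nearest paralogs, the 5 genes most like the members' mean z-score, Rag1 and Xist. Marker genes of other cells, Ddx3y, Ly6g, Cxcr2, Clec4d, Il1b and Clec4e were named after their values were seen. The same holds for Cdc25a, Chia1, Ciz1 and C330027C09Rik. The alternatives were pseudocounts 1 and 0.01, no filter and a CPM minimum of 1, median-of-ratios and quantile scaling, limma without the trend, a replicate block, a term for Xist over 100 CPM, and leaving out each library. The term for Xist leaves the genotype difference to WT replicate 3 against the libraries labelled Rag1-/-. Coordinates are those of the deposited table, with the end 1 base before the deposited stop, and were identical to RefSeq for all 10 members.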

Additional observations from a re-analysis of the deposited data

How the results depend on the processing

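The log2 fold changes of the members were negative in all 141 values under the alternatives, 128 of which stayed within the spread between replicates; for Mpo they ran from -3.22 (ratio of arithmetic mean CPM) to -0.39 (pseudocount 1).

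Of the 10 members, 5 were lower without overlap (Elane, which was not tested, among them), beside 14.4% of all genes tested. The number was 3 when only the 8 members over 3 reads in a library of each genotype were kept, 10 with only libraries of low Xist (41.9% of all genes), 4 with median-of-ratios scaling (7.36%), 4 with quantile scaling (6.82%), and 5 to 10 with a library left out (19.1% to 23.5%), 10 without WT replicate 1 (20.4%) and 8 without replicate 3 labelled Rag1-/- (21.4%). Of the related genes, 13 were lower without overlap; 11 were with median-of-ratios scaling, 9 with quantile scaling and 33 with only libraries of low Xist, and 13 became 14 to 21 with a library left out, 21 without WT replicate 1 and 20 without replicate 1 labelled Rag1-/-. The log2 ratio of the summed level was -1.44 and ran from -1.80 to -1.002 with a library left out.

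Over all genes, 8 had an adjusted p under 0.05, 6 of them lower, against 3 of 6 with median-of-ratios scaling and 3 of 5 with quantile scaling. The count was 4 with pseudocount 0.01, 4 with no filter, 4 with a CPM minimum of 1, 5 with quantile scaling, 2 without the trend, 134 with the Xist term (in which WT replicate 3 is the single WT library with low Xist), and 2 to 24 with a library left out, 24 without WT replicate 3. With the replicate block it was 3; deviations of same-numbered samples correlated at 0.0926, -0.220 and -0.0183, so they share only a number. None of the related genes passed except Hdc with the Xist term, so that 1 did (adjusted p = 0.0135). The causes of these changes were not tested. Depth limits Mpo and Elane, which had no more than 2 reads in any library labelled Rag1-/-.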
